A study of Homo sapiens with 6 samples.

Results

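The 4 human HOX clusters, HOXA, HOXB, HOXC and HOXD, were examined in Hi-C contact maps of LNCaP cells. The members were 38 HOX genes chosen by name, of which 10 lie in HOXA, 10 in HOXB, 9 in HOXC and 9 in HOXD. They occupied 15 of the 63217 bins of 40 kb that were usable in both maps, and with 1 Mb on each side of every cluster the examined windows held 217 bins. The member bins span chr7:27120001-27240000 (HOXA), chr17:46600001-46840000 (HOXB), chr12:54320001-54480000 (HOXC) and chr2:176920001-177080000 (HOXD) in hg19. HOXB also spans 2 bins with no HOX gene, between HOXB9 and HOXB13.

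Hi-C records, as sequenced read pairs, which places in the genome lay close enough to be cross-linked and ligated. LNCaP is an established prostate cancer cell line. Cells were transfected at 20 nM with pooled siRNAs that target no gene (control siRNA, 2 libraries) or that target CTCF, an architectural protein (CTCF siRNA, 4 libraries), were transfected again when they were split, and were collected at 144 h. Transient siRNA lowers the protein without removing the gene, and the depth of the knockdown cannot be read from contact maps. The authors pooled the libraries of each condition into 1 map and 1 list of topologically associating domains (TADs), so no value below has a replicate (the labels number the CTCF siRNA libraries Rep1, Rep2, Rep1.1 and Rep2.1 and do not say whether the last pair are libraries of their own or further runs of the first), no test between conditions was possible, and every interval or SD covers counting error only.

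HOX genes encode homeodomain transcription factors that give cells their position along the body axis. Within a cluster the genes are numbered by paralogue group, lie in that order on the chromosome, and low-number genes act towards the head while high-number genes act towards the tail. Vertebrate clusters commonly sit where domains of long-range regulation meet, so that genes of either end are reached from the DNA on their own side. HOXD in the developing limb is the textbook case. HOXB13 is a lineage factor of the prostate that works together with the androgen receptor.

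Read pairs, as recovered from the deposited values, numbered 26174660 in control and 87657869 in CTCF siRNA. The deposited values, which carry factors for part of the bins, sum to 30047495 and 92466992. Of the recovered pairs 52.2% and 64.2% joined places on the same chromosome. A usable bin had a median of 367 same-chromosome contacts in control and 1258 in CTCF siRNA. HOX bins were covered more deeply than that in both maps, and more so after CTCF siRNA. The median coverage of the member bins over that of their chromosome was 1.79 in control and 3.35 in CTCF siRNA for HOXA, 2.13 and 2.78 for HOXB, 1.89 and 3.78 for HOXC, and 1.53 and 2.62 for HOXD. GC content of the member bins ran from 43.4% to 54.0%, against a median of 39.5% over usable bins. What part the unequal coverage has in the values below was not tested, beyond the comparison of expectations with and without bin factors.

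CTCF binds DNA through a core motif, and its orientation matters for loops. Matches to the CTCF core consensus of 12 bases were read on both strands of GRCh37, which has the hg19 coordinates. A match is a description of the letters and says nothing about binding in LNCaP. Of all usable bins 13.2% held at least 1 match, and 2 of the 15 member bins did. The sequences below are the 3 matches within the spans of the clusters and, for HOXC and HOXD, which held none, the nearest match beyond each end. Each is 30 bases, 5′ to 3′ on the strand named, with the core in capitals.
HOXA between HOXA7 and HOXA9, chr7:27200748-27200777, minus strand: aaacggcggCCAGCAGATGGCagtgtggct
HOXB in exons of HOXB3 and HOXB-AS1, chr17:46628527-46628556, minus strand: ccctcggatCCAGCAGAGGGCtgtggtggc
HOXB between HOXB9 and HOXB13 within the noncoding gene LINC02086 outside its exons, chr17:46740675-46740704, plus strand: ccggagcaaCCACCAGATGGCcctgtatgt
HOXC beyond HOXC13, outside the exons of a long noncoding gene, chr12:54224607-54224636, plus strand: tctctagtaCCAGCAGAGGGCctgccaatg
HOXC beyond HOXC4, between SMUG1 and CBX5, chr12:54608650-54608679, plus strand: ccttgttggCCAGCAGAGGGCgcaatagga
HOXD beyond HOXD13, in an exon of LNPK, chr2:176829120-176829149, plus strand: acagctgctCCAGCAGATGGCggctcacac
HOXD beyond HOXD1, between MTX2 and HNRNPA3, chr2:177319822-177319851, minus strand: aaagagtccCCAGCAGGGGGCacccttttg

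The windows held 9 matches around HOXA, 15 around HOXB, 15 around HOXC and 4 around HOXD. None of the bins that carried a TAD boundary inside a cluster, in either list, held a match. The match between HOXA7 and HOXA9 lies in the bin that adjoins the boundary bin of HOXA. What share of boundary bins over the genome holds a match was not computed, so no conclusion is drawn from its absence.

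To ask how CTCF depletion changed the domains that hold the HOX genes, the deposited TADs were set side by side first. HOXA and HOXB were each split by a boundary at the same position in both lists. In control a boundary lay in the HOXD13 bin, and by the listed edge all 9 HOXD members started in 1 TAD, although bins of 40 kb do not resolve on which side HOXD13 lay. In CTCF siRNA this boundary was absent. HOXC lay within 1 TAD in control and was split in CTCF siRNA only. Across the 4 windows 6 of 12 control boundaries had no CTCF siRNA boundary within 40 kb and were counted as lost, against 47.4% of the 3475 boundaries of the whole control list. Of the 13 CTCF siRNA boundaries in the windows 7 were gained, against 36.9% of 2893. Where boundaries had to touch to be shared, 9 were lost and 10 gained in the windows, and the shares over the genome were not computed for that rule. The lists come from maps of unlike depth, and what part depth has in the boundaries that differ was not tested.

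**Figure D1:**
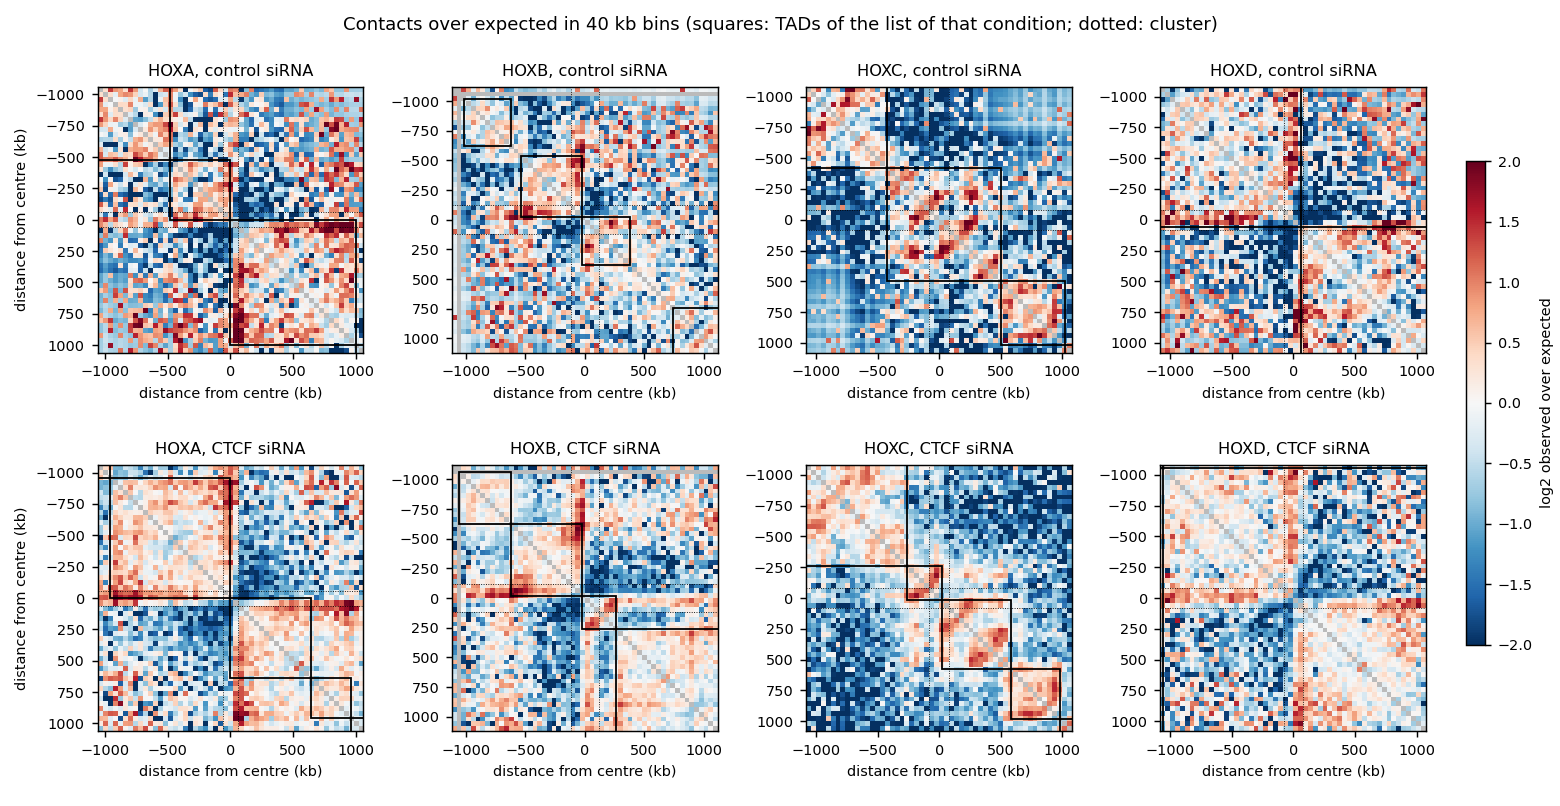
Contacts over expected (log2, with a pseudocount of 0.5 on both) between all pairs of 40 kb bins within 1 Mb of each cluster, for control siRNA in the upper row and CTCF siRNA in the lower row. Both axes give the distance from the cluster centre in kb with the low-number side first, squares are the TADs of that condition's list, dotted lines mark the cluster and grey bins were not usable. Red bands run over most of the adjoining side from both ends of HOXA and HOXD and from the low-number end of HOXB. In control the HOXB13 bin lies above expected within 200 kb on its own side, and not above it from 200 to 800 kb. Contacts of both ends of HOXC with their own sides lie below expected beyond 400 kb in control. The TAD edge at the high-number end of HOXD in control is absent in CTCF siRNA.

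Insulation was then measured for every bin. Contacts that pass over a bin, relative to the number expected on that chromosome at that distance, were compared on a log2 scale with those inside each of its 400 kb flanks, relative to expected in the same way. The lower this value, the more a bin separates its flanks. A difference of 0.5 or more on this log2 scale between CTCF siRNA and control was called. The value rose by at least that much in 4 of the 15 HOX bins, 3 in HOXD and 1 in HOXA, while 12.9% of 61617 bins of the genome did so, and 14.3% of the 13504 bins within the GC range of the HOX bins. It fell by that much in 0 of the 15, against 3.78% of the genome and 3.16% of the bins within that GC range. The count for all 15 bins rests on 2 clusters, and the clusters are therefore described one by one.

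**Figure D2:**
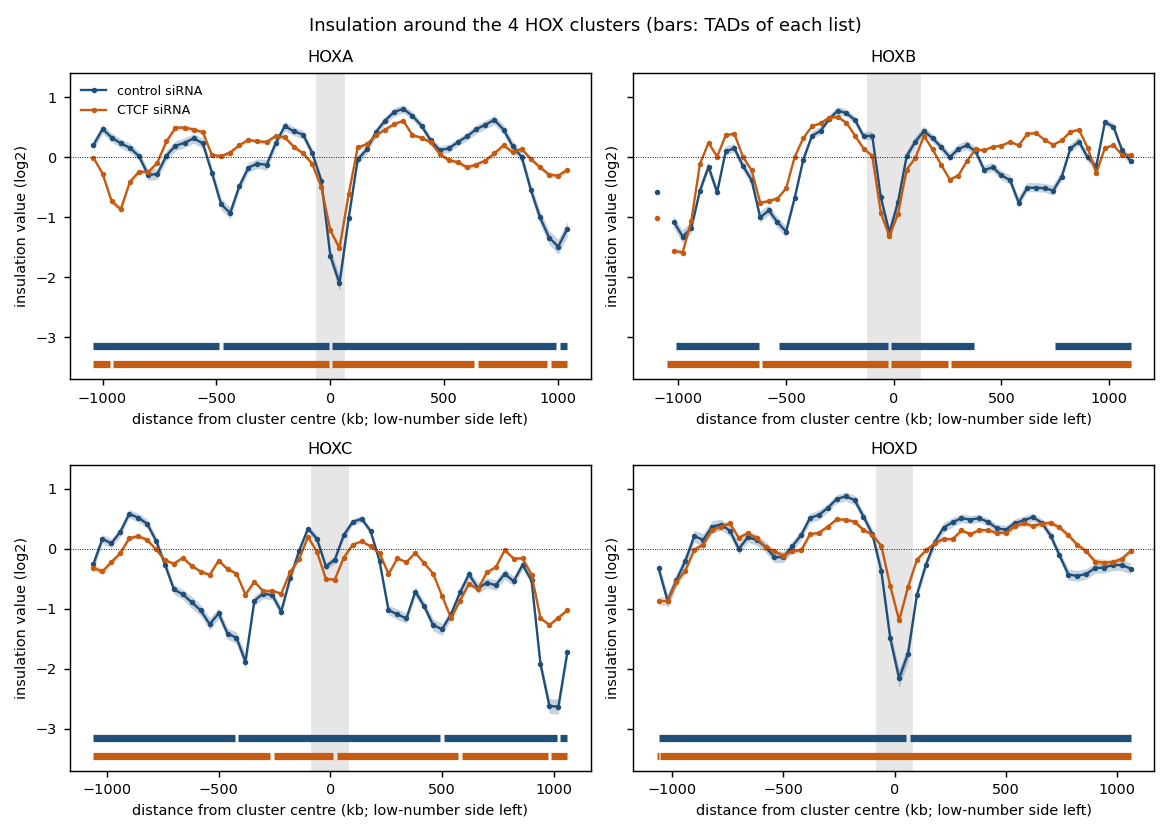
Insulation value (log2) of each 40 kb bin within 1 Mb of the clusters, by distance from the cluster centre in kb with the low-number side on the left, for control siRNA (blue) and CTCF siRNA (orange), with shading for 1 counting SD. Grey marks the cluster and the bars at the bottom are the TADs of each list. The trough inside HOXD is shallower after CTCF siRNA, from -2.16 to -1.20 at its lowest bin, and that of HOXB is nearly the same in both maps.

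HOXD had the largest mean difference in insulation of the 4 clusters. In control its lowest insulation value, -2.16, was reached by 0.177% of the bins of the genome, the rarest of the 4 clusters. In CTCF siRNA the lowest value was -1.20, reached by 1.64%. The control list put a boundary at position 176940000, between a TAD of 1400 kb (chr2:175540001-176940000) and a TAD of 1680 kb (chr2:176940001-178620000) that held the start sites of all 9 HOXD members. In CTCF siRNA a TAD of 2840 kb (chr2:175220001-178060000) covered the cluster and both sides. It was not a plain union of the control TADs, because a boundary was gained at position 178060000, near HNRNPA3, within the second of them. Insulation in the bin of that edge went from -0.33 ± 0.09 to -0.87 ± 0.07. The adjoining bin, chr2:178000001-178040000, stood at -0.87 ± 0.12 in control and -0.88 ± 0.07 in CTCF siRNA. A trough of that depth was thus already present beside the edge in control. The edges of both lists lie at bin centres, so the boundary is placed no more finely than the bin chr2:176920001-176960000, which holds the start of HOXD13 and the neighbouring homeobox gene EVX2.

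Bin by bin, insulation at HOXD13 was -1.75 ± 0.14 (counting SD) in control and -0.64 ± 0.05 in CTCF siRNA, a rise of 1.11 ± 0.15. In the bin of HOXD8 to HOXD12 it went from -2.16 ± 0.15 to -1.20 ± 0.06, a rise of 0.97 ± 0.16. In the bin of HOXD3 and HOXD4 it went from -1.49 ± 0.13 to -0.62 ± 0.05, a rise of 0.87 ± 0.14. The bin of HOXD1, at the low-number end, had -0.38 ± 0.09 and 0.04 ± 0.04, a difference of 0.42 ± 0.10 that was below the call. All 4 bins therefore lay higher in CTCF siRNA, with a mean difference of 0.84 ± 0.11. At lost boundaries of the whole genome the median difference was 0.60 over 1467 positions, with 1.29 at the 95th percentile, and at maintained ones 0.35, with 1.13. The control medians of these classes were -0.77 and -1.06, so the HOXD13 bin, at -1.75, started from a lower value than is usual in either. The CTCF siRNA value of the boundary bin, -0.64, was below the median of lost boundaries (-0.12) and close to that of maintained ones (-0.65).

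The size of this rise depended on how far from the cluster contacts were counted. With flanks of 200 kb it was 1.27 at HOXD13 and 1.26 in the bin of HOXD8 to HOXD12. With flanks of 800 kb it was 0.49 and 0.45, under the call. With balanced contacts it was 0.75 and 0.78. Over the whole of the 2 control TADs, leaving out the bin of the boundary, contacts between them were 0.799 times expected in control (1019 contacts, 95% interval 0.751 to 0.850) and 0.771 times in CTCF siRNA (4030 contacts, 0.747 to 0.795). The ratio of these was 0.964 (0.900 to 1.03). Contacts between the 1 Mb beyond either end of the cluster were 0.745 times expected in control (0.683 to 0.811). In CTCF siRNA they were 0.636 times expected (0.606 to 0.668), a ratio of 0.85 (0.77 to 0.94). That ratio was not computed without bin factors. The weaker insulation was thus measured near the cluster, and neither between the TADs as wholes nor between these stretches of 1 Mb.

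The next question was which side each end of a cluster contacts. Each cluster was divided into an anterior portion, the bins whose start sites mostly belong to paralogue groups 1 to 8, and a posterior portion, those of groups 9 to 13. A start site is the outermost annotated end of the gene, and that of HOXC6 falls in a posterior bin. The low-number side is the 1 Mb beyond the low-number end and the high-number side the 1 Mb beyond the high-number end. The expected count here used a coverage factor for each bin from iterative balancing. The side preference is the log2 of observed over expected contacts with the low-number side over the same with the high-number side. The coverage of the portion itself largely cancels in it. In the whole genome 37.4% of 121610 portions of 80 kb, from windows of 160 kb, changed their side preference by 0.5 or more in one direction or the other, and 1 of the 8 HOX portions did. The HOX portions differ in size from these, since they held 1 to 3 bins of 40 kb. The anterior portion of HOXB lay close to the call and passed it in other settings.

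The portion that passed the call was the anterior portion of HOXD. Its side preference was 2.93 in control (95% interval 2.50 to 3.39) and 1.68 in CTCF siRNA (1.53 to 1.83), a difference of -1.25 (-1.71 to -0.80). With the low-number side, which holds MTX2 and HNRNPA3, it had 432 contacts in control, 1.90 times expected, and 1560 in CTCF siRNA, 1.53 times expected. With the high-number side, beyond EVX2, it had 49 contacts in control, 0.249 times expected (0.185 to 0.330), and 443 in CTCF siRNA, 0.478 times expected (0.434 to 0.524). The ratio of these was 1.91 (1.42 to 2.63), and 2.25 without bin factors. Contacts of the anterior portion with the side it otherwise avoids thus stayed under the expected value after CTCF siRNA but were closer to it.

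The 2 bins of the anterior portion moved together. The bin of HOXD3 and HOXD4 had a side preference of 3.28 in control, the highest of any bin in the 4 clusters, and 1.84 in CTCF siRNA. The HOXD1 bin had 2.46 and 1.399. The bin of HOXD8 to HOXD12 is counted as posterior but preferred the low-number side. It had 0.75 (0.41 to 1.09) in control and 0.28 (0.14 to 0.42) in CTCF siRNA. The HOXD13 bin preferred the high-number side in both maps, with -2.01 (-2.55 to -1.52) in control and -1.05 (-1.24 to -0.86) in CTCF siRNA. Every HOXD bin thus had a preference of smaller size after CTCF siRNA, while none changed sign.

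For the posterior portion as a whole, the side preference was -0.36 in control and -0.22 in CTCF siRNA, a difference of 0.14 (-0.12 to 0.40) that did not exceed counting error. Its strongest contacts in control lay 600 to 800 kb beyond the cluster, in a segment without protein-coding genes (chr2:176120001-176320000). It had 121 contacts there, 4.37 times expected (3.63 to 5.22). In CTCF siRNA it had 310, 1.95 times expected (1.74 to 2.18), a ratio of 0.446 (0.360 to 0.555). For the whole high-number side the ratio was 0.859 with bin factors and turned to 1.18 without them. The neighbouring segment from 800 to 1000 kb (chr2:175920001-176120000), with ATF2 and ATP5MC3, was at 2.31 (1.64 to 3.17) and 2.51 (2.20 to 2.85). The single strongest segment of the anterior portion in control was likewise one without protein-coding genes on its own side, chr2:177480001-177680000, at 3.38 (2.75 to 4.12) in control and 1.79 (1.58 to 2.03) in CTCF siRNA.

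**Figure D3:**
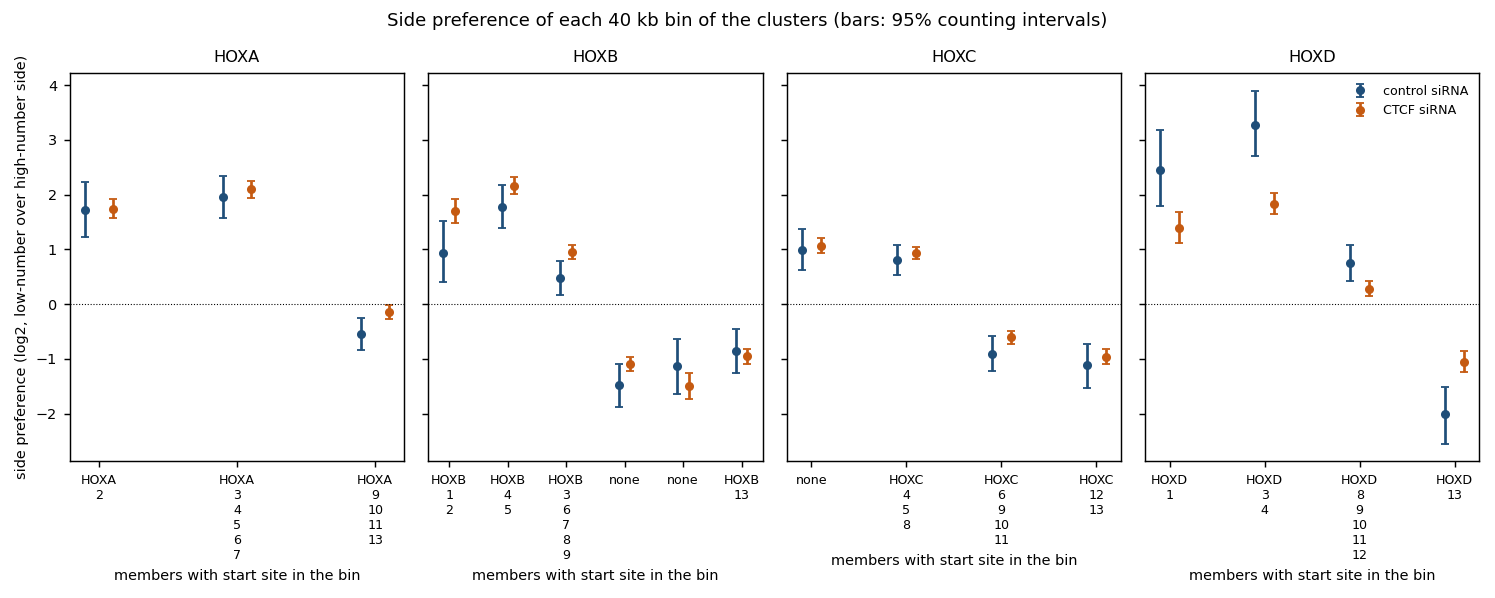
Side preference (log2 of contacts over expected with the low-number side over the high-number side) of each 40 kb bin of the 4 clusters, in the order of paralogue numbers, with 95% counting intervals, for control siRNA (blue) and CTCF siRNA (orange). Numbers under each bin are the members that start in it, and "none" marks a bin without a start site. In each cluster the first bins in this order lie above 0 and the last below 0 in both maps, the bin of HOXD8 to HOXD12 lies above 0, and in HOXD the points lie closer to 0 after CTCF siRNA.

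HOXA kept its boundary. Both lists put it at position 27180000, in the bin chr7:27160001-27200000 that holds the start sites of HOXA3 to HOXA7. By the recorded start sites HOXA2 and HOXA4 fell in the low-coordinate TAD, and the other 8 members fell in the high-coordinate TAD. The recorded start of HOXA3 is the outermost end of an annotation that spans HOXA4 to HOXA6, which puts it beyond them. Bins of 40 kb do not resolve the side of HOXA3 to HOXA7, which start in the boundary bin. The low-coordinate TAD grew from 480 kb in control (chr7:26700001-27180000) to 960 kb (chr7:26220001-27180000) in CTCF siRNA. The high-coordinate TAD shrank from 1000 kb (chr7:27180001-28180000) to 640 kb (chr7:27180001-27820000). The lowest insulation value of HOXA, -2.10 in control and -1.51 in CTCF siRNA, was reached by 0.234% and 0.563% of bins.

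The insulation value in the bin of HOXA9 to HOXA13 rose from -2.10 ± 0.13 to -1.51 ± 0.05, by 0.59 ± 0.14. In the boundary bin of HOXA3 to HOXA7 it was -1.65 ± 0.11 and -1.22 ± 0.05, a difference of 0.43 ± 0.12. In the bin of HOXA2 it was -0.39 ± 0.08 and -0.50 ± 0.04, a difference of -0.11 ± 0.09. Maintained boundaries of the genome had a median difference of 0.35 over 1475 positions, so the difference in the boundary bin of HOXA was near the middle of its class. Their control median was -1.06, above the -1.65 of this bin. Contacts between the control TADs that meet there were 0.673 times expected in control (444 contacts) and 0.501 in CTCF siRNA (1679 contacts), a ratio of 0.745 (0.671 to 0.829), and 0.876 without bin factors. They were thus lower in CTCF siRNA, while insulation in the bin was weaker. The rise had a limited range here too. It was 1.02 in each of the last 2 bins with flanks of 200 kb, and -0.13 in the bin of HOXA9 to HOXA13 with flanks of 800 kb. With balanced contacts the bin of HOXA9 to HOXA13 had 0.43, under the call, and with the values as deposited the difference in the boundary bin was 0.03.

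The 2 ends of HOXA preferred opposite sides in both maps, the posterior end only slightly in CTCF siRNA. The anterior portion had a side preference of 1.83 (1.53 to 2.13) in control and 1.92 (1.81 to 2.04) in CTCF siRNA. It had 450 contacts with the low-number side in control, 1.68 times expected, and 116 with the high-number side, 0.473 times expected. In CTCF siRNA the same contacts numbered 2816, at 1.69, and 831, at 0.446. The posterior portion, the bin of HOXA9 to HOXA13, had a preference of -0.55 (-0.85 to -0.25) in control and -0.14 (-0.27 to -0.02) in CTCF siRNA, a difference of 0.40 (0.09 to 0.72) that was below the call. With the low-number and high-number side it was at 0.994 and 1.45 times expected in control, and at 1.01 and 1.12 in CTCF siRNA.

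The similar preference of the anterior portion in both maps covered a shift in where on its own side it made contacts. Within 200 kb of the cluster it was at 1.55 times expected in control and 1.18 in CTCF siRNA, and from 200 to 400 kb, over SKAP2, at 2.50 and 1.92. From 600 to 800 kb it was at 1.25 (0.82 to 1.81) in control and 2.54 (2.31 to 2.78) in CTCF siRNA, and from 800 to 1000 kb, over NFE2L3, HNRNPA2B1 and CBX3, at 1.499 (0.93 to 2.29) and 2.73 (2.45 to 3.03). Relative to each other, contacts thus lay less on the near part and more on the far part in CTCF siRNA. No direction is given for the near part alone, since the ratio of the maps for the whole low-number side was 1.01 with bin factors and 1.5006 without them. The control boundary at position 26700000, in SKAP2, lies between these parts and was lost. Insulation there went from -0.78 ± 0.10 to 0.02 ± 0.04. With sides of 520 kb, which leave out the far part, the change in side preference of the anterior portion was -0.61.

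The strongest segment of HOXA9 to HOXA13 in both maps was the one from 800 to 1000 kb, in JAZF1 (chr7:28040001-28240000), a gene with a boundary of each list. It had 51 contacts in control, 5.05 times expected (3.76 to 6.65), and 205 in CTCF siRNA, 2.80 times expected (2.43 to 3.21). From 600 to 800 kb the values were 4.50 (3.50 to 5.69) and 2.19 (1.92 to 2.49). From 400 to 600 kb they were 2.17 and 1.94, with intervals that overlap. These values rest on bin factors: for the whole high-number side the ratio of the maps was 0.772 with them and turned to 1.27 without them. The boundary in JAZF1 was counted as maintained, at position 28180000 in control and 28140000 in CTCF siRNA, while insulation in its control bin went from -1.49 ± 0.13 to -0.31 ± 0.04.

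**Figure D4:**
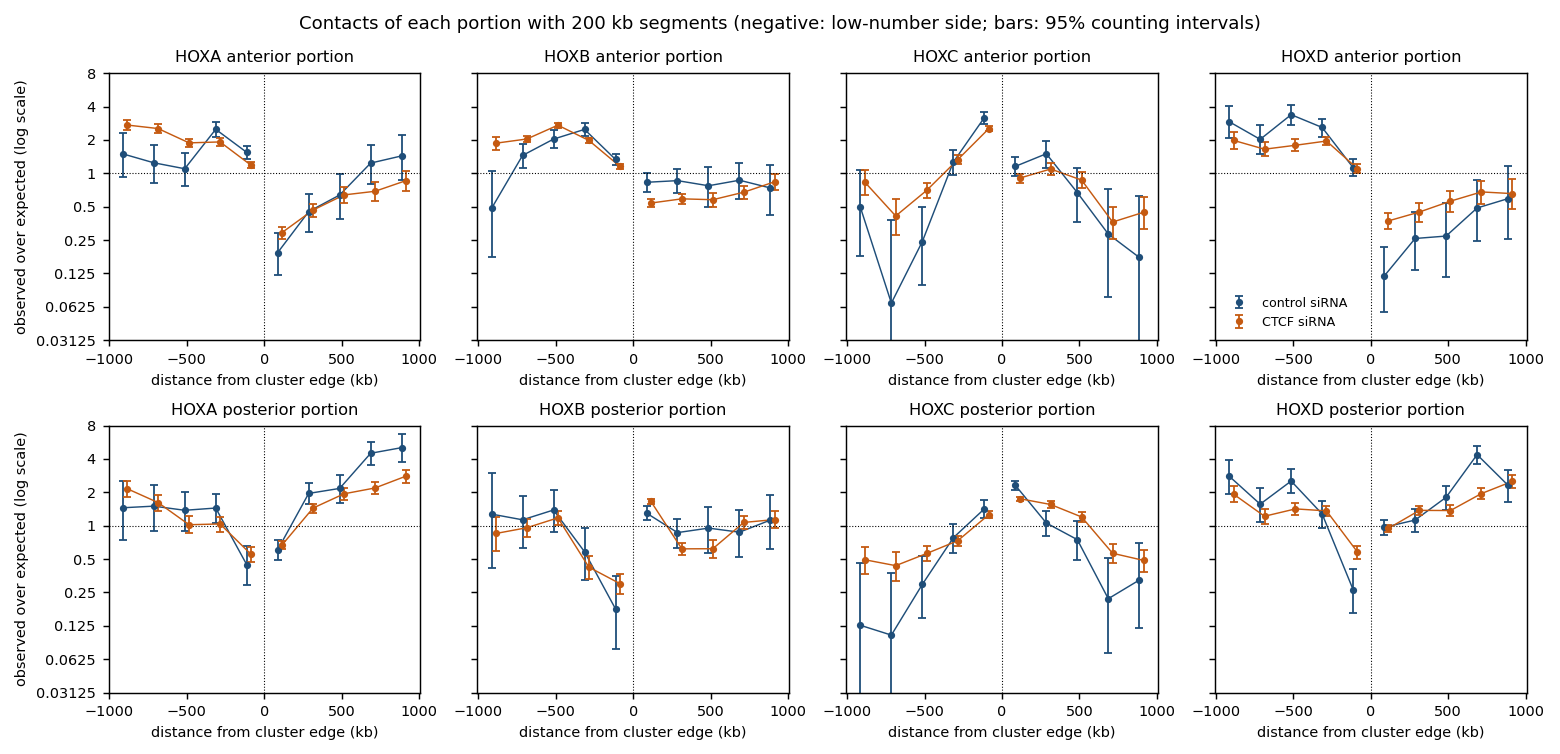
Observed over expected contacts (log scale) of the anterior portion (upper row) and posterior portion (lower row) of each cluster with 200 kb segments, by distance from the cluster edge in kb with the low-number side negative, for control siRNA (blue) and CTCF siRNA (orange), with 95% counting intervals. The anterior portion of HOXA lies higher beyond 400 kb on its own side after CTCF siRNA, up to 2.73, and the anterior portion of HOXD lies higher on the far side, 0.118 against 0.373 in the nearest segment.

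HOXB also kept its boundary, and insulation in the boundary bin differed by less than its counting SD. Both lists put the boundary at position 46700000, in the bin chr17:46680001-46720000 with the start sites of HOXB3 and HOXB6 to HOXB9. By the listed edge HOXB1 to HOXB6 and HOXB8 started in the low-coordinate TAD, and HOXB7, HOXB9 and HOXB13 in the high-coordinate TAD. HOXB7 is placed beyond HOXB8 only because its start was taken as the outermost end of an annotation that spans HOXB8 and HOXB9. Bins of 40 kb do not resolve the side of HOXB3 and HOXB6 to HOXB9, which start in the boundary bin. In that bin insulation stood at -1.26 ± 0.10 in control and -1.32 ± 0.04 in CTCF siRNA, a difference of -0.06 ± 0.11. It was reached by 4.08% of bins in control and by 1.09% in CTCF siRNA, so that the trough in HOXB moved towards the lowest of the genome while its depth stayed nearly the same. The other 3 bins differed by -0.33 ± 0.07 (HOXB1 and HOXB2), -0.26 ± 0.09 (HOXB4 and HOXB5) and -0.27 ± 0.08 (HOXB13), all below the call. The mean over the 4 bins was lower in CTCF siRNA by more than counting error, at -0.23 ± 0.06.

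The TADs on either side of HOXB were redrawn at their outer edges. The low-coordinate TAD was 520 kb in control (chr17:46180001-46700000) and 600 kb in CTCF siRNA (chr17:46100001-46700000). The high-coordinate TAD was 400 kb (chr17:46700001-47100000) and 280 kb (chr17:46700001-46980000), with the control edge in IGF2BP1, which was lost, and the CTCF siRNA edge near ATP5MC1 and UBE2Z, which was gained. Insulation at the lost edge was 0.10 ± 0.07 and 0.13 ± 0.02, so the list and the contacts differ there. Contacts between the 2 control TADs were 0.4999 times expected in control (286 contacts) and 0.388 in CTCF siRNA (1498 contacts), a ratio of 0.776 (0.684 to 0.884).

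The anterior portion of HOXB, the bins of HOXB1 to HOXB9, had a side preference of 0.99 (0.78 to 1.21) in control and 1.48 (1.396 to 1.57) in CTCF siRNA. The difference of 0.49 (0.27 to 0.72) exceeded counting error and was just below the call. It passed the call with the nearest 80 kb left out (0.57) and when counts of the CTCF siRNA map were thinned (0.54), and was 0.33 without bin factors. With the high-number side the portion was at 0.829 times expected in control (238 contacts) and 0.601 in CTCF siRNA (1383 contacts), and with the low-number side at 1.65 and 1.68. On the low-number side its strongest segment was the one from 200 to 400 kb in control, over SNX11 and SKAP1, at 2.49 (2.19 to 2.82). In CTCF siRNA it was the one from 400 to 600 kb, with CBX1, NFE2L1, SP2 and 5 other genes, at 2.72 (2.58 to 2.87). From 800 to 1000 kb the portion had 6 contacts in control, 0.483 times expected (0.177 to 1.05), and 222 in CTCF siRNA, 1.87 times expected (1.63 to 2.13). That segment includes a bin that was not usable and a bin with only 46 same-chromosome contacts in control.

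The HOXB13 bin had the side preference of its own end of the cluster in both maps. The bin, chr17:46800001-46840000, had -0.85 (-1.27 to -0.46) in control and -0.96 (-1.10 to -0.82) in CTCF siRNA, of opposite sign to every other bin of HOXB that holds a HOX start site. Its contacts with the bins of HOXB1 to HOXB9 were 0.388 times expected in control (31 contacts, 0.264 to 0.551) and 0.385 in CTCF siRNA (234 contacts, 0.337 to 0.437). With the 2 bins in between it was at 0.787 and 0.779. Contacts under the expected value were also found among the bins of HOXB1 to HOXB9, such as 0.330 and 0.462 between the bin of HOXB1 and HOXB2 and that of HOXB9, so they were not particular to HOXB13. The change in sign of the side preference fell between the bin of HOXB9, at 0.47 in control, and the next bin, at -1.48, and lay at the same place in CTCF siRNA, with 0.95 and -1.10. On its own side the HOXB13 bin had most contacts over expected in CTCF siRNA with the first 200 kb beyond the cluster, over TTLL6, CALCOCO2, ATP5MC1, UBE2Z, SNF8 and GIP, at 1.298 (1.11 to 1.505) in control and 1.66 (1.58 to 1.74) in CTCF siRNA. The segment with the highest value in control was on the low-number side, at 1.38 with an interval of 0.87 to 2.096 over 22 contacts.

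HOXC had no boundary in control, where a TAD of 920 kb (chr12:53900001-54820000) held all 9 members. In CTCF siRNA the list put a boundary at position 54380000, in the bin chr12:54360001-54400000. By the listed edge HOXC10 to HOXC13 then started in a TAD of 560 kb (chr12:53820001-54380000) and HOXC4 to HOXC9 in a TAD of 280 kb (chr12:54380001-54660000). Bins of 40 kb do not resolve the side of HOXC6, HOXC9, HOXC10 and HOXC11, which start in the boundary bin. The outer control edges, at position 53900000 near ATF7 and at position 54820000 in ITGA5, were both lost. The first has a CTCF siRNA edge 80 kb away, at position 53820000, and is shared when boundaries may lie 80 kb apart, which leaves 5 lost and 6 gained boundaries in the 4 windows. Insulation went from -1.35 ± 0.10 to -0.79 ± 0.04 at the first and from -1.49 ± 0.10 to -0.42 ± 0.03 at the second.

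The dip inside HOXC was shallow in both maps. In the boundary bin insulation stood at -0.18 ± 0.06 in control and -0.52 ± 0.02 in CTCF siRNA, a difference of -0.33 ± 0.06. The other 3 bins differed by -0.38 ± 0.06 (HOXC12 and HOXC13), -0.21 ± 0.07 (HOXC4, HOXC5 and HOXC8) and -0.21 ± 0.06 (the end of HOXC4). All 4 were thus lower in CTCF siRNA by less than the call, with a mean of -0.28 ± 0.05. The lowest value in HOXC was reached by 31.5% of bins in control and 12.2% in CTCF siRNA. Gained boundaries of the genome had a median difference of -0.13 over 919 positions. With flanks of 200 kb the difference in the boundary bin was 0.25, of opposite sign.

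The preference of the ends of HOXC for opposite sides was present before the boundary was called. In control the anterior portion, the bin of HOXC4, HOXC5 and HOXC8, had a side preference of 0.80 (0.52 to 1.07), and the posterior portion, with HOXC6 and HOXC9 to HOXC13, had -0.96 (-1.21 to -0.72). In CTCF siRNA these were 0.94 (0.82 to 1.05) and -0.75 (-0.84 to -0.66), and neither difference exceeded counting error. Contacts between the stretches that became the 2 TADs were 1.16 times expected in control (582 contacts) and 0.932 in CTCF siRNA (3054 contacts), a ratio of 0.803 (0.735 to 0.879). The direction of that ratio turned without bin factors, to 1.20. The strongest segment of each portion was the nearest 200 kb on its own side in both maps, with CBX5 and HNRNPA1 for the anterior portion at 3.18 and 2.52, and with CALCOCO1 for the posterior portion at 2.31 and 1.75. The ratio of the maps over the whole of these sides was 0.911 and 0.885 with bin factors, and 1.399 and 1.42 without them. Beyond the lost boundary in ITGA5, 400 to 600 kb away, the anterior portion had 7 contacts in control, 0.243 times expected (0.0976 to 0.5003), and 151 in CTCF siRNA, 0.702 times expected (0.595 to 0.824).

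In both maps all 4 anterior portions had more contacts over expected with the low-number side, and all 4 posterior portions with the high-number side. Of 60802 windows of 160 kb over the genome, 5.81% had both of their 80 kb portions on their own side in this way in both maps, and of single portions 50.6% in control and 48.5% in CTCF siRNA did. The windows overlap, and this share was computed after the values of the clusters were seen. Within the posterior portion of HOXD only the HOXD13 bin preferred the high-number side. Its bin of HOXD8 to HOXD12 preferred the low-number side, at 0.75 (0.41 to 1.09) in control and 0.28 (0.14 to 0.42) in CTCF siRNA. The anterior portions were ordered HOXD, HOXA, HOXB and HOXC in control, with side preferences of 2.93, 1.83, 0.99 and 0.80, of which the last pair had overlapping intervals. In CTCF siRNA the order was HOXA, HOXD, HOXB and HOXC, with 1.92, 1.68, 1.48 and 0.94, and the intervals of HOXD overlapped with those of both HOXA and HOXB. The posterior portions ran from -0.36 (HOXD) to -0.96 (HOXC) in control and from -0.14 (HOXA) to -0.96 (HOXB) in CTCF siRNA. The sides of a cluster had fewer contacts with each other than expected in CTCF siRNA for all 4, from 0.591 (HOXC) to 0.785 (HOXB), while the median over 60126 windows of the genome was 1.01. In control they ran from 0.716 (HOXC) to 0.995 (HOXB), against a median of 0.951. The ratio of the maps ran from 0.752 (HOXA) to 0.854 (HOXD). That lies within the 5th and 95th percentiles of these windows, 0.735 and 1.60. Contacts between the sides were not computed without bin factors for any cluster.

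Contacts among the member bins of a cluster were 0.927 times expected for HOXA in control (158 contacts), 0.567 for HOXB (153), 1.0046 for HOXC (344) and 0.506 for HOXD (104). In CTCF siRNA they were 0.657 (1027), 0.552 (1085), 0.943 (2208) and 0.647 (993). The ratio was 1.28 (1.04 to 1.58) for HOXD and 0.709 (0.599 to 0.844) for HOXA, and its interval held 1 for HOXB (0.974) and HOXC (0.938). Windows of 160 kb over the genome had a median ratio of 1.0045, with 0.795 and 1.32 as the 5th and 95th percentiles, so HOXD lay inside that range and HOXA below it. These windows are larger than HOXA, which has 3 member bins, and smaller than the span of HOXB, so the range is only a rough measure for both. The value for HOXA turned to 1.61 without bin factors and to 1.35 without neighbouring bins, and no direction is given for it. The values for HOXB (1.28 and 1.07) and HOXC (1.53 and 1.22) turned to above 1 as well, and HOXD gave 2.48 and 2.26. The pair of the HOXD13 bin and the bin of HOXD8 to HOXD12 had 16 contacts in control, 0.316 times expected (0.180 to 0.513), and 241 in CTCF siRNA, 0.560 times expected (0.491 to 0.635). That of the HOXD3 and HOXD4 bin with the HOXD1 bin was at 1.299 and 1.72. The pair between these, of the bin of HOXD8 to HOXD12 and the HOXD3 and HOXD4 bin, was at 0.412 and 0.423, a ratio of 1.03 (0.67 to 1.65).

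Contacts with other developmental regulators on the same chromosomes were too few for a comparison. Of 21 genes, which encode DLX, TBX, LHX and other transcription factors, 20 lie over 2 Mb away, and each had 0 to 2 contacts with its HOX cluster in control. In CTCF siRNA the highest count was 10 for TBX4 with HOXB, against 2.64 expected, or 3.79 times expected (1.82 to 6.98), and in control it was 1 contact. TBX2, which neighbours TBX4, had 6 contacts, 1.83 times expected (0.67 to 3.99). DLX1 and DLX2, which are neighbours, had 7 contacts each with HOXD against 8.36 and 9.91 expected. Between clusters on different chromosomes the member bins had 0 contacts in all 6 pairs in control and at most 1 in CTCF siRNA. The windows around them had 13 to 33 contacts per pair in control and 52 to 108 in CTCF siRNA, and every interval of observed over expected included 1.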

How the data were processed

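Hi-C libraries of LNCaP cells (2 control siRNA, 4 CTCF siRNA; BglII) were mapped by the authors to hg19 with HiCUP and Bowtie 1.1.0, with FastQC 0.11.2, SAMtools 1.2 and Picard 1.121 named in the submitters' processing notes. The authors merged the libraries by condition, giving 1 matrix at 40 kb each, and called TADs with domaincaller from a directionality index and a hidden Markov model. Each deposited contact value is the count of read pairs times factors for its bins, with no scaling for depth. Factors differed from 1 between positions 9400001 and 48160000, were shared by all chromosomes at a position, and touched HOXA (0.465 to 1.47) and HOXB (0.562 to 1.33). The design had assumed raw counts. Counts were recovered by division, and 99.9993% (control) and 99.9974% (CTCF siRNA) of checked values came out whole within 0.01 plus 0.05%, against 2.28% and 2.40% for random remainders. The deposited TAD lists are coordinates, with all 10506 edges at bin centres.

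Usable bins had, in each map, a same-chromosome count of at least 10% of the median of their chromosome. Insulation used flanks of 400 kb. Contacts over expected used iterative balancing, exact Poisson 95% intervals and exact conditional intervals for ratios, and the change in side preference an interval from the 4 counts. SDs came from 200 Poisson redraws. PCR reads are not independent molecules, so these cover counting error only. Facing TAD edges at most 100 kb apart were 1 boundary, shared within 40 kb. Gene positions and exons came from GENCODE v44 lifted to GRCh37, and sequences from the GRCh37 assembly. Start sites were the outermost annotated ends of the genes, so long annotations put some, such as HOXA3, HOXB3, HOXB7 and HOXC6, out of paralogue order. The text names the 38 members, protein-coding genes at boundaries and in the strongest 200 kb segments, a list of regulators, and for places the genes beside a motif match. Other named bins, pairs and segments were chosen after their values were seen. The members and lists were chosen with earlier results of these data known. Calculations used Python 3.11.15, numpy 2.4.6, scipy 1.17.1 and pysam 0.24.0, and were tested on simulated maps.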

Additional observations from a re-analysis of the deposited data

How the results depend on the processing

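No paired analysis was possible because the authors pooled the libraries of each condition into 1 map, and for the same reason no library could be left out. Of 176 values under other settings, 130 stayed within the 95% counting interval of the reported value, or within 1.5 times for counts of boundaries. These included all 8 counts of lost and gained boundaries. Another 38 moved and 8 reversed. A value could count as reversed only where the reported one was called or, for a ratio, had an interval without 1. Further values that turned direction are therefore among the 38 and the 130. In the order of coordinates, insulation changes with flanks of 200 kb were 0.25, 1.02 and 1.02 in HOXA, 0.17 in the HOXB4 and HOXB5 bin and -0.43 in the HOXB13 bin, 0.25 and 0.0515 in the middle bins of HOXC and 1.15 in the HOXD3 and HOXD4 bin. With flanks of 800 kb they were -0.06 and, reversed, -0.13 in the last 2 bins of HOXA, -0.13 in the first bin of HOXB, and 0.49, 0.45 and 0.37 in the first 3 bins of HOXD, so that no HOX bin was called. With balanced contacts the bins of HOXD13, of HOXD3 and HOXD4, and of HOXD1 had 0.75, 0.54 and 0.13. Without neighbouring bins the HOXB13 bin had -0.10. With values as deposited the first 2 bins of HOXA had -0.32 and 0.0310 and the first of HOXB -0.19. With sides of 520 kb the change in side preference was -0.61 for the anterior and 0.0285 for the posterior portion of HOXA. The change for the anterior portion of HOXD lay between -1.44 and -1.09 in all 6 settings.

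Without bin factors, the ratio of contacts within a cluster was 1.61 for HOXA (reversed), 1.28 for HOXB, 1.53 for HOXC and 2.48 for HOXD, and without neighbouring bins 1.35 for HOXA (reversed), 1.22 for HOXC and 2.26 for HOXD. Ratios of contacts with a side, and between neighbouring TADs, were also computed without bin factors, a setting added once the data had been seen. They were 1.5006 and 1.70 for the anterior portion of HOXA with the low-number and high-number side and 1.37 and 1.27 (reversed) for its posterior portion, 1.16 and 0.928 for the anterior portion of HOXB and 1.42 for HOXB13 with the high-number side, 1.399 and 1.23 (reversed) for the anterior and 1.75 and 1.42 (reversed) for the posterior portion of HOXC, and 0.914 for the anterior portion of HOXD with the low-number side and 1.37 and 1.18 (reversed) for its posterior portion. Ratios between neighbouring TADs became 0.876 in HOXA and 1.20 (reversed) in HOXC. Side preferences rest on the ratio of both sides within a map and stayed within their intervals without bin factors. The cause of the differences was not tested. Depth limits the control map most, where single segments of 200 kb held as few as 1 contact with a portion.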
